A study of Homo sapiens with 96 samples.

Results

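The subject is 10 genes whose RNA was highest late in the sampled day in wild-type cells: SEPP1, CXCL14, PDGFB, DRD1, SLCO2A1, FOXS1, ARID5B, BMF, ARSJ and ABLIM1. They were chosen by measured values, namely their wild-type day course, in which the peak of a fitted 24 h cosine fell near CT16 to CT19, so that course is given here as a description with no test. They are 10 of the 19438 genes in the tables, and all 10 passed the filter on low counts in total RNA (14033 genes tested) and in ribosome footprints (11995 genes tested). The cells are U2-OS, a human osteosarcoma line with a luciferase reporter under the Per2 promoter. All plates, of both treatments, were synchronised with 0.1 µM dexamethasone, a glucocorticoid that sets the clock, collected at 12 times from 24.5 h onward at 2 h steps, and given cycloheximide (100 µg/mL), which stalls ribosomes. Knockdown plates were seeded with 560000 cells and had 120 pmol of 5 pooled siRNAs to Bmal1, the clock activator listed as ARNTL. Wild-type plates were seeded with 4.02 times as many cells and had no siRNA. No control siRNA is named in the labels, so the siRNA, the transfection, the seeding density and the series themselves cannot be told apart in any difference between the treatments. Each treatment, assay and time has 2 replicates, numbered 1 and 2, so each treatment and assay has 2 series of 12 libraries.

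Total RNA libraries held 13.6 to 20.1 M reads (M, 1e+06 reads), except the second knockdown series at CT14 (2.66 M) and CT18 (2.56 M), and footprint libraries held 2.50 to 5.82 M. Values below are counts per M reads of a library (CPM), which are not corrected for gene length, so a gene is compared only with itself. The siRNA target ARNTL was at 32.6 ± 11.6 CPM (SD, n = 24) in wild-type and 4.82 ± 0.708 CPM (n = 24) in knockdown total RNA, with no overlap. Of 8 osteoblast markers, 4 (RUNX2, ALPL, COL1A1, SPARC) averaged at least 1 CPM in both treatments, and SP7, COL1A2, BGLAP and IBSP were at or near 0. Summed over the list, the osteoblast markers ranged from 1090 to 1202 CPM early (CT00 to CT06) and 1245 to 1384 CPM late (CT16 to CT22) in wild-type libraries, and from 1142 to 1230 CPM early and 1262 to 1733 CPM late in knockdown libraries. Epithelial markers summed to 7.36 to 12.9 CPM early and 9.78 to 23.9 CPM late in wild-type, and to 7.63 to 11.2 CPM early and 9.99 to 14.2 CPM late in knockdown. Blood markers summed to 1.58 to 3.39 CPM in wild-type against 9.80 to 17.7 CPM in knockdown, nearly all of it CD68 (PTPRC and HBB were at or near 0). Neuronal markers summed to 9.62 to 14.8 CPM in wild-type and 8.85 to 20.4 CPM in knockdown. Their part in the results below was not tested.

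A circadian gene in cultured cells climbs and falls once a day, with the phase set by transcription factors that the clock drives, such as BMAL1 on E-boxes, PAR bZIP factors on D-boxes and ROR or REV-ERB receptors on ROR elements. A gene that only climbs through a single day, by contrast, cannot be assigned a phase, because a cosine forced through a steady climb also returns a peak in the second part of the day. The 10 genes have unrelated products. SEPP1 encodes a secreted carrier of selenium, CXCL14 a chemokine and PDGFB a mitogen for mesenchymal cells. DRD1 is a dopamine receptor that raises cyclic AMP, and SLCO2A1 takes up prostaglandins. FOXS1 is a forkhead factor and ARID5B a DNA-binding cofactor, BMF is a pro-apoptotic BH3-only protein, ARSJ is an arylsulfatase and ABLIM1 links actin through LIM domains.

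RefSeq promoter windows (GRCh38.p14, 250 bases before to 50 after a start, while the reads had been aligned to GRCh37) were found for 7 of the 10 genes, 14 windows in all. They were searched on both strands for the E-box CACGTG, the D-box TTATGTAA, the ROR core TAGGTCA, the cyclic AMP element TGACGTCA, the forkhead motif GTAAACA and the glucocorticoid element. The 3 windows below are shown because they hold an E-box or forkhead match, in capitals, in genes described below. Each is the 250 bases before the start, 5′ to 3′ along the gene: SEPP1 (SELENOP in RefSeq) at chr5:42811893-42812142 on the minus strand, DRD1 at chr5:175444183-175444432 on the minus strand, and the second ARID5B window at chr10:62049107-62049356 on the plus strand, where the match lies on the other strand.
SEPP1: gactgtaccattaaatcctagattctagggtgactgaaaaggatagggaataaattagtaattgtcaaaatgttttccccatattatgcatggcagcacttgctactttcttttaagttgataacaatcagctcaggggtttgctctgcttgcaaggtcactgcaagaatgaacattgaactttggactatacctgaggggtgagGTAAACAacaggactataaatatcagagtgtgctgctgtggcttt
DRD1: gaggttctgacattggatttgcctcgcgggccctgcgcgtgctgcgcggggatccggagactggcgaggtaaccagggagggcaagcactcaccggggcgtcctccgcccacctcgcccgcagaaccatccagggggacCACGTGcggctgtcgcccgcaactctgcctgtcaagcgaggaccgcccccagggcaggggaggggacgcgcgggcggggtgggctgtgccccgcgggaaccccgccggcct
ARID5B: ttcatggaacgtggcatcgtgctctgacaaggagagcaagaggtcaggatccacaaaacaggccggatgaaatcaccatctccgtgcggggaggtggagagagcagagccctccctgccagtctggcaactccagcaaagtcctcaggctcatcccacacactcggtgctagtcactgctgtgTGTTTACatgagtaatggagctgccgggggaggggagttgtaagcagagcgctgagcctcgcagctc
The forkhead match lies 45 bases before the SEPP1 start and 67 bases before that ARID5B start, and the E-box 111 bases before the DRD1 start. Over 34796 promoters of the same length, 7.20% held the E-box and 3.42% the forkhead motif. One further match was the ROR core (1.83% of promoters), 106 bases before the start of the sixth ABLIM1 window, and none of the 14 windows held the D-box (0.877%), the cyclic AMP element (1.84%) or the glucocorticoid element (0.00287%). A match is a stretch of letters and not a bound site, and no motif was found in more than 2 of the 7 genes.

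In wild-type total RNA all 10 genes were higher at CT16 to CT22 than at CT00 to CT06, with no overlap between those 4 late and 4 early libraries in either series. The genes were chosen on this course, which favours such a separation, and its share over all genes was not computed. SEPP1 had the widest course. Its first series read 3.72 CPM at CT00, 1.45 at CT02, 15.4 at CT08, 17.5 at CT16, 30.5 at CT18, 28.4 at CT20 and 54.0 at CT22. Its second series read 1.77 CPM at CT00, 4.09 at CT08, 28.8 at CT14, 40.3 at CT18, 27.4 at CT20 and 29.9 at CT22. The first series was thus still climbing at its last time, while the second was highest at CT18 and lower after it. CXCL14 was likewise highest at CT22 in the first series, with 5.34 CPM at CT00 and 40.8 at CT22. Its second series read 4.21 at CT00, 17.9 at CT18 and 17.5 at CT22, so it was highest at CT18 but ended near that level. PDGFB went from 1.74 to 17.0 CPM between CT00 and CT22 in the first series and from 1.22 to 6.88 in the second, and both series were highest at CT22.

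Both membrane proteins also ended the day high. DRD1 read 1.86 CPM at CT00 and 13.5 at CT22 in the first series, and 0.340 and 6.82 in the second. Its second series made most of that difference between CT08 (1.01 CPM) and CT12 (5.24 CPM) and lay between 4.42 and 6.82 CPM from then on. SLCO2A1 was sparse, at 7 to 46 reads per wild-type library, and read 1.22 CPM at CT00 and 2.70 at CT22 in the first series and 0.815 and 1.79 in the second.

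FOXS1 read 1.45 CPM at CT00 and 12.0 at CT22 in the first series and 0.611 and 5.10 in the second. BMF read 7.26 and 40.6 CPM at those times in the first series and 2.51 and 28.4 in the second. For both genes each series was highest at CT22, and all 5 steps between successive windows of 2 times went up. ABLIM1, the most deeply counted member (5148 to 10241 reads in wild-type libraries), read 348 CPM at CT00, 438 at CT12 and 601 at CT22 in the first series and 350, 437 and 511 in the second. ARID5B dipped before it climbed, from 74.9 CPM at CT00 to 57.9 at CT04 and 118 at CT22 in the first series and from 75.7 to 70.1 and 120 in the second. ARSJ dipped later in the day. Its first series went from 18.1 CPM at CT00 to 12.5 at CT08 and was highest at CT20 (25.5), and its second had a low of 15.6 at CT06 and was highest at CT18 (24.5), with 20.9 at CT22.

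**Figure D1:**
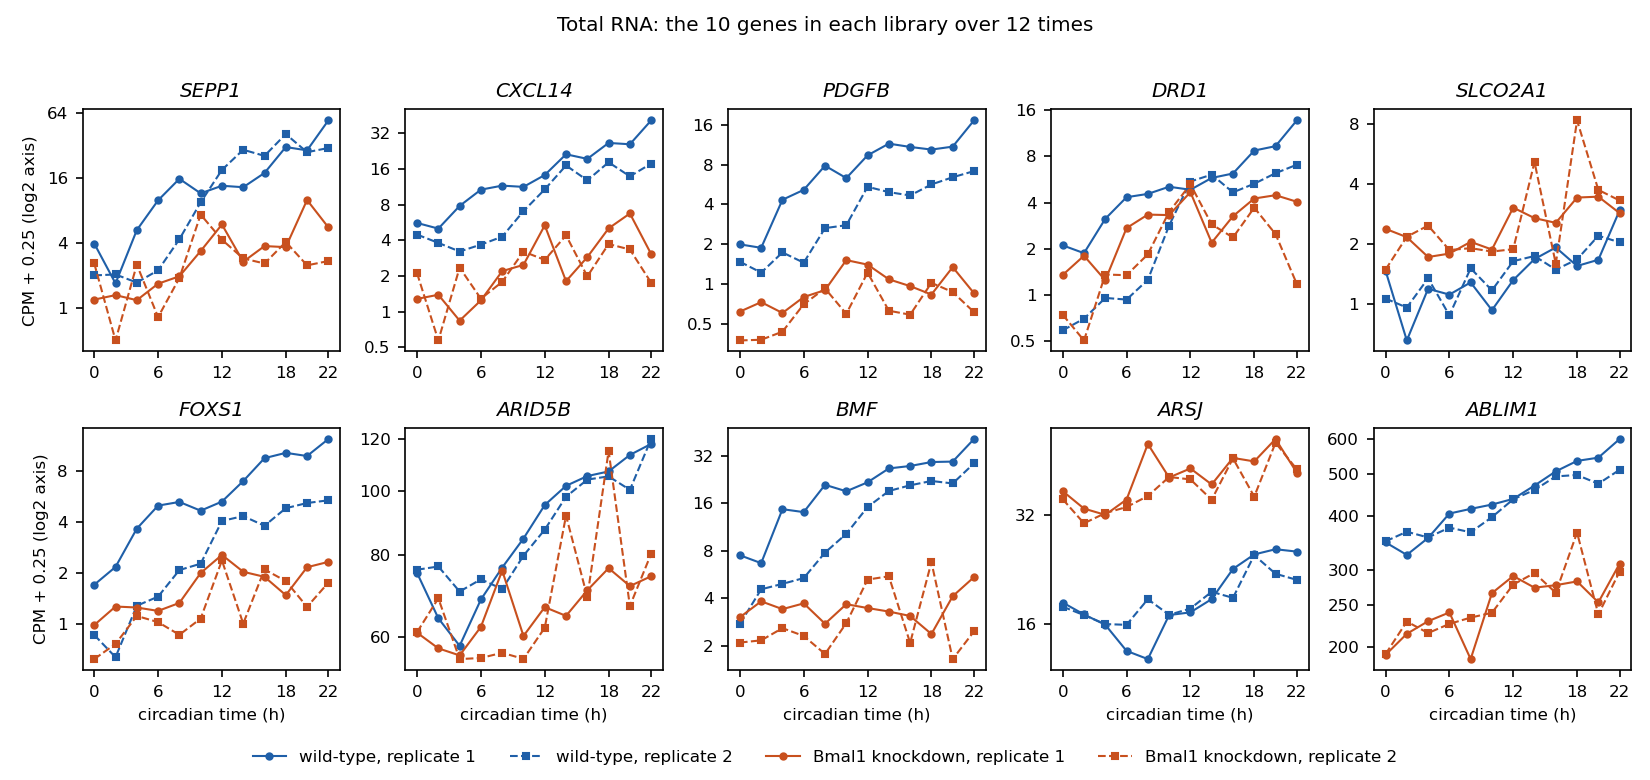
Total RNA of the 10 genes (y axis, CPM + 0.25, log2 axis that differs between panels) against circadian time in hours (x axis). Each line is 1 series of 12 libraries, blue wild-type and orange Bmal1 knockdown, solid replicate 1 and dashed replicate 2. The wild-type lines run upward to the right in every panel, and 15 of the 20 wild-type lines have their highest point at CT22.

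Whether these courses turned was read from the difference between the window CT20 to CT22 and the window CT16 to CT18, on the log2 scale. A value below 0 means a lower last window and a value above 0 a higher one. In the first wild-type series it was above 0 in 10 of 10 genes, from 0.10 to 0.75 with a median of 0.33. In the second it was above 0 in 7 of 10, from -0.16 to 0.42 with a median of 0.14, and below 0 in SEPP1 (-0.16), ABLIM1 (-0.008) and ARSJ (-0.003). Over all 14033 genes it was above 0 in 49.7% and 50.6%. The highest of the 12 times was CT22 for 9 genes in the first series and 6 in the second, against 14.7% and 13.0% of all genes, and no gene was highest before CT18. The genes were chosen for a late wild-type course, which favours late highest times and bears on the last windows. The shares over all genes are therefore given as description and not as a test. The wild-type day did not close either. CT22 and the CT00 that would follow it lie 2 h apart on the clock, yet CT22 was above CT00 in 10 of 10 genes in both series, by a median of 5.98-fold in the first and 4.41-fold in the second (on CPM + 0.25). The choice of the genes on this course favours such a gap, and its share over all genes was not computed. The fitted cosine nonetheless peaked between CT 15.98 (PDGFB) and CT 18.80 (ARSJ), which for most of these genes is earlier than their highest measured time. So within the sampled day the wild-type total RNA of these genes was higher late than early. The median difference between the last windows was smaller in the second series (0.14) than in the first (0.33). All 10 genes were read from the same libraries and varied together, so 1 deviant library can move many of them. The 95% interval of this difference, fitted over both series, held 0 for SEPP1 (-0.74 to 1.34) and for ABLIM1 (-0.11 to 0.24). Whether the climb slowed or turned can therefore not be decided from these counts of genes. The last window was lower by more than 0.01 on the log2 scale in 1 gene of 1 series, SEPP1. The window CT16 to CT18 pools both times, so a fall from CT18 alone can be hidden in this measure. In the second series CXCL14 read 17.9 CPM at CT18, 13.6 at CT20 and 17.5 at CT22. ARSJ read 24.5, 21.8 and 20.9 CPM at those times.

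**Figure D2:**
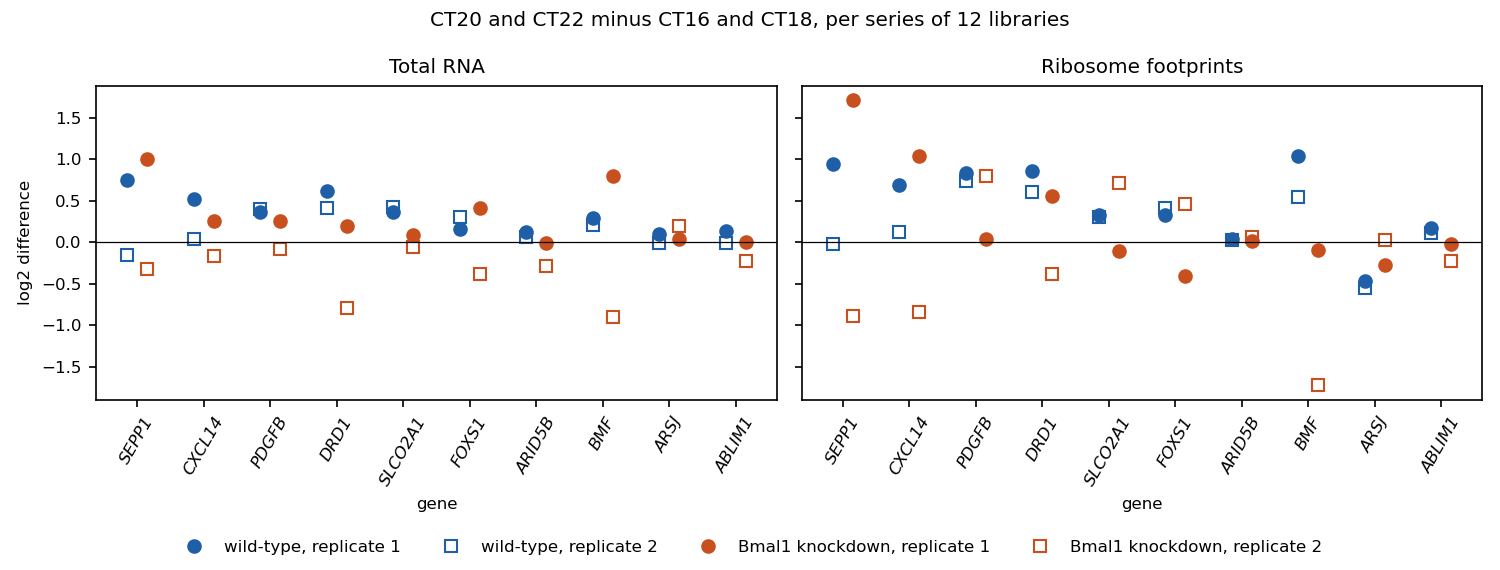
Log2 difference between the mean of CT20 and CT22 and the mean of CT16 and CT18 (y axis) for each gene (x axis), in total RNA and in footprints. Each point is 1 series of 12 libraries, filled circles replicate 1 and open squares replicate 2, blue wild-type and orange knockdown. In total RNA the first wild-type series lies above 0 for all 10 genes, and the second knockdown series lies below 0 for 9.

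Wild-type footprints were also higher late than early, but in the first series their highest time was mostly CT20 and not CT22 as in total RNA. The late libraries exceeded the early ones without overlap in 8 of 10 genes in the first series and 9 of 10 in the second. The share of all genes that separated in this way was not computed. Late minus early had a median over the 10 genes of 1.77 in the first series and 1.81 in the second, on the log2 scale. CXCL14 footprints read 10.6 CPM at CT00, 124 at CT20 and 70.7 at CT22 in the first series and 5.62, 25.9 and 35.2 in the second. SLCO2A1, sparse in total RNA, was better covered by footprints and read 3.21 CPM at CT00, 21.2 at CT20 and 13.2 at CT22 in the first series and 6.18, 13.5 and 17.2 in the second. The first series was highest at CT20 for 9 of 10 genes, whereas the second was highest at CT22 for 7 and at CT20 for 1. Over all 11995 genes, CT22 was the highest time for 5.65% in the first series and 9.83% in the second. The choice of the genes on their wild-type course favours late highest times here too. That share was not computed for CT20. PDGFB was highest at CT20 in both series and lower at CT22, at 13.0 and 10.2 CPM in the first and 7.07 and 5.27 in the second. ARSJ footprints were lower after CT18 in both series, with a difference between the last windows of -0.47 in the first and -0.55 in the second, on 8 to 39 reads per library.

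**Figure D3:**
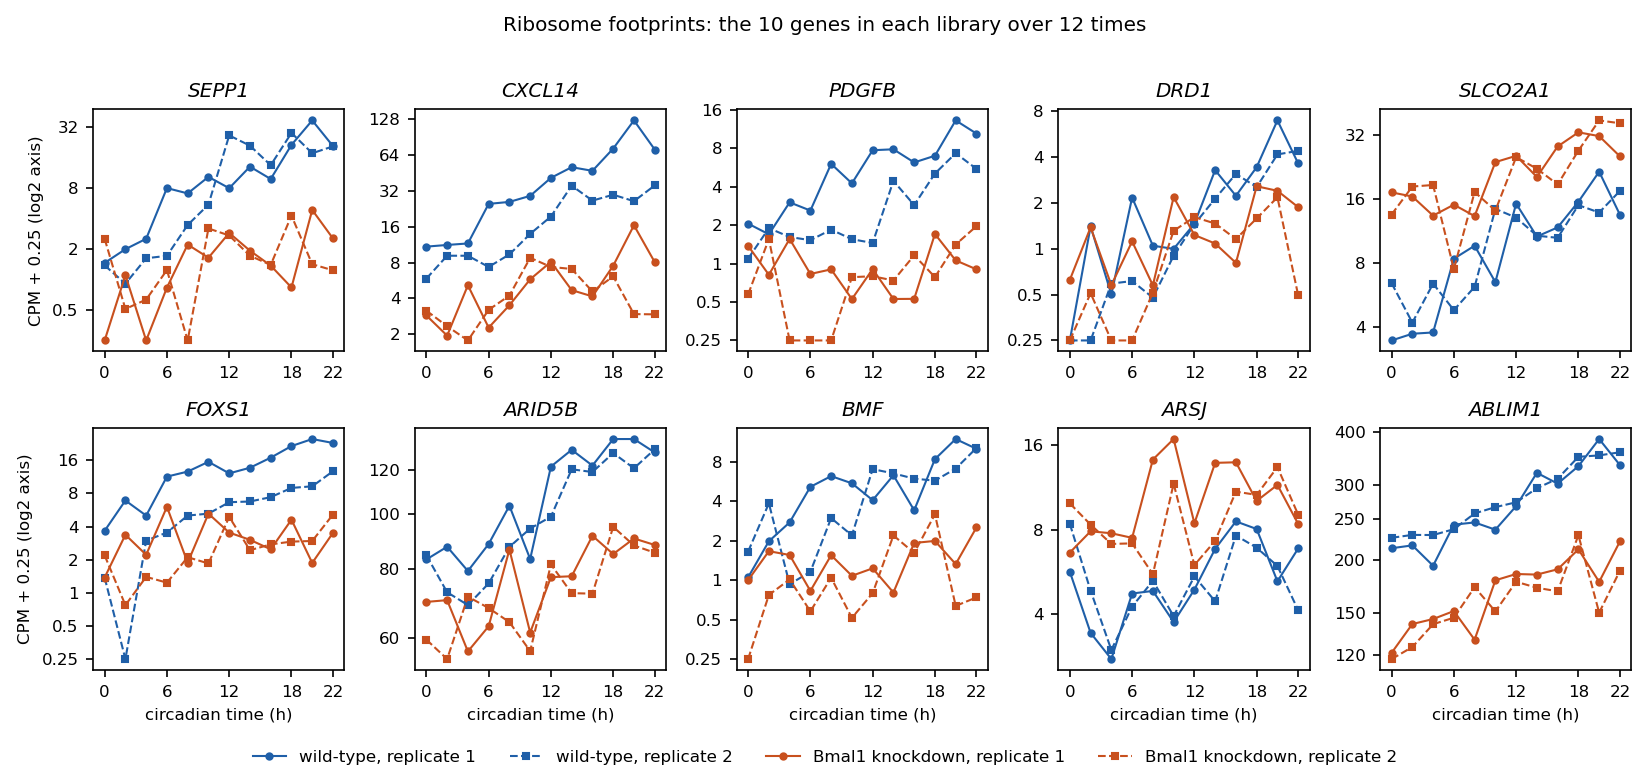
Ribosome footprints of the 10 genes (y axis, CPM + 0.25, log2 axis that differs between panels) against circadian time in hours (x axis), with the same lines and colours as in the plot of total RNA. For 9 genes the solid blue line is highest at CT20, and for 7 the dashed blue line is highest at CT22. A point at 0.25 is a library with no read.

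The knockdown course took no part in choosing the genes and was tested. Late minus early total RNA was above 0 for all 10, and 8 of the 10 rose past an adjusted p of 0.05 (limma, Benjamini-Hochberg over all genes), beside 15.3% of all genes that rose and 18.5% that fell in the same test. Those 8 rises ran from 1.29-fold in ARID5B to 2.98-fold in SEPP1. SEPP1 knockdown libraries ranged from 0.256 to 9.74 CPM with a median of 2.40 (n = 24). In the first series they read 0.956 CPM at CT00, 5.69 at CT12, 9.74 at CT20 and 5.34 at CT22, and in the second 2.35, 4.05, 2.25 and 2.48. Late and early libraries did not overlap in the first series and did in the second. The fitted rise of SEPP1 was 1.58 ± 0.36 on the log2 scale (SE, adjusted p = 0.00072), that of CXCL14 1.36 ± 0.30 (adjusted p = 0.00051) and that of DRD1 1.27 ± 0.34 (adjusted p = 0.0036). The abundant ABLIM1 was tight, at 192 and 192 CPM at CT00, 291 and 278 at CT12, and 311 and 298 at CT22 in the first and second series, a rise of 0.39 ± 0.06 (adjusted p = 1.5e-06). ARSJ read 37.1 and 35.2 CPM at CT00 and 51.8 and 50.6 at CT20, a rise of 0.41 ± 0.07 (adjusted p = 1e-05). FOXS1 (0.86 ± 0.28), SLCO2A1 (0.74 ± 0.20) and ARID5B (0.37 ± 0.08) also rose, with adjusted p from 0.0003 to 0.017.

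The 2 genes that missed the threshold were PDGFB and BMF. PDGFB was at 1 to 21 reads in knockdown libraries, with 0.368 and 0.124 CPM at CT00 and 0.601 and 0.362 at CT22, and its difference was 0.62 ± 0.28 (adjusted p = 0.083). BMF lay between 2.13 and 5.21 CPM in the first knockdown series and between 1.40 and 6.54 in the second, without a late and early separation in either, and its difference was 0.16 ± 0.27 (adjusted p = 0.71, 95% interval -0.40 to 0.71). In wild-type libraries the same quantity was 2.01 for PDGFB and 2.03 for BMF. Every one of the 10 genes had a smaller late minus early estimate in knockdown than in wild-type total RNA, where the estimates ran from 0.50 in ARSJ to 3.37 in SEPP1. That difference was not tested, because the genes were chosen for a strong wild-type course.

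Of the 8 rises in knockdown total RNA, those of SEPP1, CXCL14 and SLCO2A1 were not past the threshold without replicate 1 (adjusted p of 0.141, 0.124 and 0.117), and that of FOXS1 was not with edgeR (adjusted p = 0.051). The low-depth libraries at CT14 and CT18 of the second series held the highest SLCO2A1 (4.90 and 8.08 CPM) and BMF (5.28 and 6.54 CPM) values of that series, and without both libraries the same count of 8 genes rose while the BMF difference was -0.03.

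**Figure D4:**
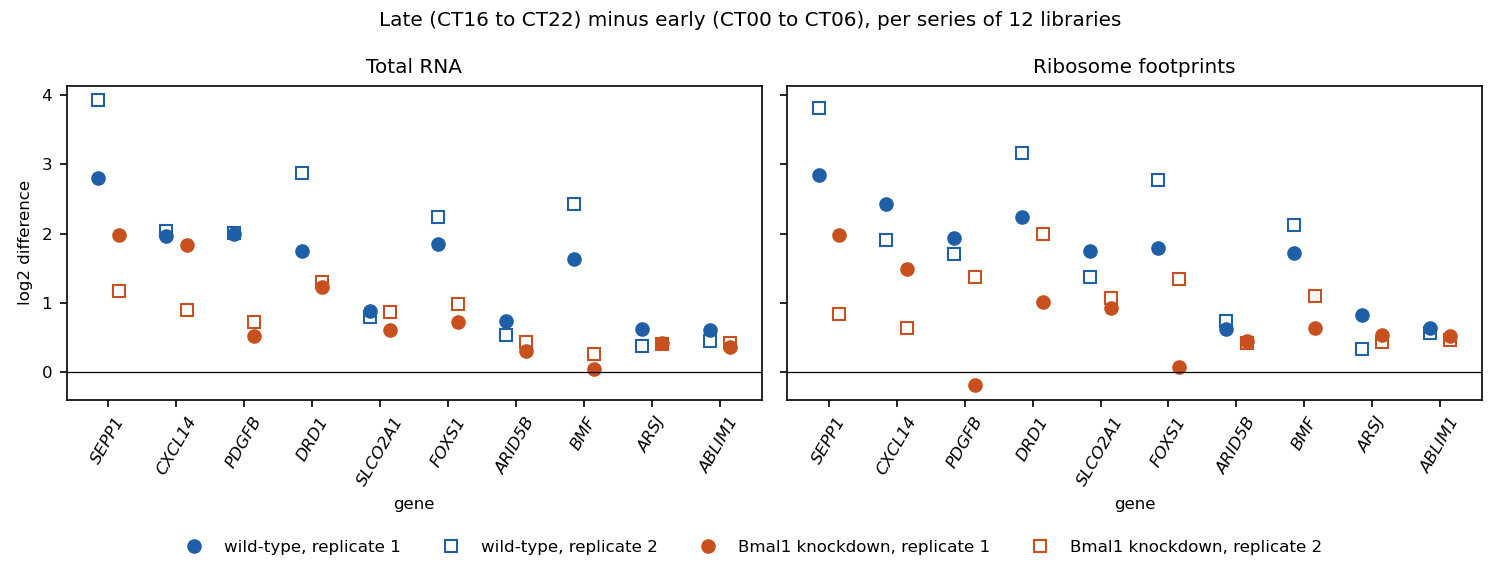
Log2 difference between the late (CT16 to CT22) and early (CT00 to CT06) means (y axis) for each gene (x axis) in total RNA and footprints. Each point is 1 series of 12 libraries, filled circles replicate 1 and open squares replicate 2, blue wild-type and orange knockdown. The knockdown points lie above 0 in total RNA for all 10 genes and sit near 0 for BMF, at 0.04 and 0.27.

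DRD1, PDGFB and BMF passed the filter on low footprint counts only through the wild-type libraries, so their knockdown footprints are given as values only. Of the other 7 genes, 6 rose in knockdown footprints, beside 8.89% of all genes that rose in that test. With all 10 counted, 7 were past the threshold, DRD1 among them. Its value was a 2.84-fold rise (SE 0.41 on the log2 scale) on 0 to 8 reads per library, where the pseudocount weighs on the fold. SLCO2A1 rose by 1.00 ± 0.17 (adjusted p = 1.2e-05) on 22 to 147 reads. SLCO2A1 read 16.9 and 13.2 CPM at CT00 and 25.1 and 36.0 at CT22, with late and early libraries apart in both series. SEPP1 (1.41), CXCL14 (1.06), ABLIM1 (0.49), ARSJ (0.49) and ARID5B (0.44) made up the rest of the 6. FOXS1 (0.71, adjusted p = 0.31) missed the threshold. As values only, the differences were 0.88 for BMF and 0.59 for PDGFB, which were also not past the threshold. ARSJ passed narrowly (adjusted p = 0.0497) and was lost without either replicate. SEPP1 and CXCL14 were lost with edgeR (adjusted p of 0.14 and 0.133) and without replicate 1 (0.457 and 0.112), and DRD1 without replicate 2 (adjusted p = 0.22). FOXS1 was called without replicate 1 (adjusted p = 0.0226). The count over all 10 genes was thus 5 without either replicate, and it was 4 without the CT20 library of replicate 1.

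No gene of the 10 was called changed between CT16 to CT18 and CT20 to CT22 in knockdown, in either assay. In total RNA the differences ran from -0.30 (DRD1) to 0.34 (SEPP1) with adjusted p of 0.598 or more, 0 of 10 had an unadjusted p under 0.05, and edgeR also called 0, beside 1.35% of all genes called. In footprints they ran from -0.91 (BMF) to 0.42 (PDGFB) with adjusted p of 0.967 or more, again 0 of 10 at an unadjusted p under 0.05 and 0 with edgeR, beside 0.417% of all genes. The intervals are wide: for SEPP1 total RNA the 95% interval was -0.69 to 1.38, for DRD1 -1.28 to 0.68, and only for ABLIM1 (-0.29 to 0.06), ARID5B (-0.37 to 0.08) and ARSJ (-0.09 to 0.32) was it within 0.4 of 0. Both knockdown series differed in this. In total RNA the first was above 0 in 9 of 10 genes (median 0.22) and the second below 0 in 9 of 10 (median -0.26). DRD1 in the second series went from 5.02 CPM at CT12 to 2.12 at CT16, 3.46 at CT18 and 0.932 at CT22, while in the first it read 4.44, 3.01, 4.01 and 3.81. The CT18 library of the second series is a low-depth one, and with CT16 alone in its place 6 genes were above 0 and 4 below (median 0.02). Without replicate 2, BMF was called higher at CT20 to CT22 (0.81, adjusted p = 0.0337).

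The knockdown members did not all peak at the end. CT12 was the highest time for DRD1 and FOXS1 in both knockdown total RNA series (4.44 and 5.02 CPM for DRD1), and in the second series also for PDGFB. CT22 remained above CT00 in 10 of 10 genes in the first series and 9 of 10 in the second, by a median of 1.71-fold and 1.43-fold. No share over all genes was computed for this count. The cosine peak ran from CT 13.61 (PDGFB) to CT 18.07 (SLCO2A1) in knockdown total RNA, with an amplitude below that in wild-type in 9 of the 10 genes, SLCO2A1 being the other. These amplitudes and times are descriptions with no test.

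Mean levels over the day split the genes. In total RNA 8 of the 10 were lower in knockdown and 2 higher (limma, adjusted p under 0.05), beside 40.5% of all genes lower and 40.3% higher, so a difference as such was usual in this comparison. In bulk RNA fewer cells with a transcript and less of it per cell cannot be told apart. PDGFB fell most. Its wild-type libraries ranged from 0.968 to 17.0 CPM with a median of 5.04 and its knockdown libraries from 0.124 to 1.26 with a median of 0.564, which overlapped only at the low end, a 5.98-fold fall (log2 -2.58 ± 0.16, adjusted p = 2.2e-18). CXCL14 went from a median of 11.2 CPM (2.96 to 40.8) to 2.02 (0.321 to 6.47), a 4.65-fold fall (-2.22 ± 0.18). BMF went from 18.9 CPM (2.51 to 40.6) to 2.82 (1.40 to 6.54), a 4.59-fold fall (-2.20 ± 0.16), and SEPP1 from 13.1 CPM (1.45 to 54.0) to 2.40 (0.256 to 9.74), a 4.03-fold fall (-2.01 ± 0.21). All ranges of these genes overlapped because the early wild-type values are low, yet at each of the 12 times the knockdown mean was below the wild-type mean.

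FOXS1 fell 2.59-fold (-1.37 ± 0.16), ABLIM1 1.71-fold (-0.78 ± 0.03) and ARID5B 1.30-fold (-0.38 ± 0.05). DRD1 fell least firmly, from a median of 4.51 CPM (0.340 to 13.5) to 2.36 (0.256 to 5.02), by 1.53-fold (-0.62 ± 0.20, adjusted p = 0.0049). With the mean of each series of 12 libraries as the unit, 2 against 2, DRD1 was not past the threshold (adjusted p = 0.194) and the other 9 were. ARSJ and SLCO2A1 went the other way. ARSJ rose 2.11-fold (1.08 ± 0.04, adjusted p = 1.8e-27), from 12.5 to 25.5 CPM in wild-type libraries to 30.1 to 51.8 in knockdown libraries, and was the only one of the 10 whose treatments did not overlap. SLCO2A1 rose 1.78-fold (0.83 ± 0.12, adjusted p = 1e-08), from a median of 1.23 CPM (0.406 to 2.70) to 2.03 (1.24 to 8.08), and its knockdown mean was above the wild-type mean at all 12 times.

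In footprints PDGFB, BMF and DRD1 passed the filter only through the wild-type libraries, where they are high, so the filter itself favours a fall and they are given as values only. Of the other 7 genes, 5 were lower in knockdown and 2 higher, beside 37.2% and 37.5% of all genes. The differences were -2.45 ± 0.26 for SEPP1, -2.35 ± 0.20 for CXCL14, -2.14 ± 0.21 for PDGFB, -1.88 ± 0.20 for BMF, -1.47 ± 0.26 for FOXS1, -0.74 ± 0.04 for ABLIM1 and -0.47 ± 0.04 for ARID5B, and 1.16 ± 0.10 for SLCO2A1 and 0.86 ± 0.11 for ARSJ. For DRD1 the difference was -0.54 ± 0.24. Footprints relative to total RNA, the translational efficiency, was called changed in none of the 10 between the treatments (limma, lowest adjusted p = 0.105, 2 genes at an unadjusted p under 0.05, edgeR not run), beside 31.3% of all genes. The largest differences were -0.44 ± 0.34 in SEPP1 and 0.44 ± 0.27 in PDGFB. PDGFB, BMF and DRD1 are counted among these 10 and carry the limit of the filter given above. SLCO2A1 (0.33 ± 0.16, 95% interval 0.01 to 0.65) was called higher without the 2 low-depth libraries (0.45, adjusted p = 0.00892). The change of efficiency between early and late knockdown times was called in none of the 10 either (adjusted p = 1.00, 0 at an unadjusted p under 0.05), beside 0.00837% of all genes.

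**Figure D5:**
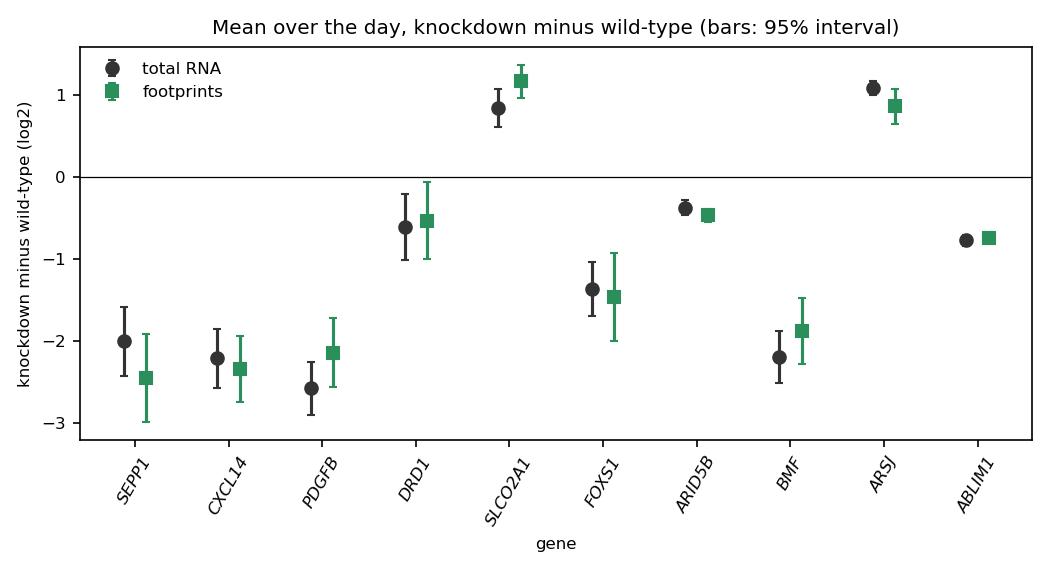
Knockdown minus wild-type mean over the day on the log2 scale (y axis) for each gene (x axis), circles total RNA and squares footprints, with 95% intervals from the fit over 48 libraries of each assay. ARSJ and SLCO2A1 lie above 0 and the other 8 below, and the intervals of both assays overlap in all 10 genes. PDGFB, BMF and DRD1 passed the footprint filter only through wild-type libraries, so their squares are values only.

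Relatives of the 10 genes did not share one course. Of 15 other forkhead factors tested in total RNA, 5 were higher late in wild-type cells and 2 lower, and 3 and 1 in knockdown, beside 16.5% of all genes higher and 19.7% lower in wild-type and 15.3% and 18.5% in knockdown. FOXO1, a factor activated by low insulin signalling, rose 0.45 ± 0.09 in wild-type (adjusted p = 0.00013) and differed by -0.03 ± 0.09 in knockdown (adjusted p = 0.83). Of 15 genes that FOXO factors are known to induce, 11 rose and 0 fell in wild-type and 5 rose and 3 fell in knockdown, with a median difference of 0.39 and 0.12 against -0.01 and 0.00 over all genes tested. TXNIP, an inhibitor of glucose uptake, rose 1.27 ± 0.32 in wild-type (adjusted p = 0.0017), and KLHL24 0.90 ± 0.15 (adjusted p = 1.2e-05). In knockdown these 2 differed by 0.21 ± 0.32 and 0.10 ± 0.15 (adjusted p of 0.65 each). PIK3IP1, an inhibitor of PI3-kinase, rose in both, by 1.00 ± 0.14 and 0.86 ± 0.14.

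Among 12 genes induced by glucocorticoids, 6 rose and 1 fell in wild-type and 4 rose and 0 fell in knockdown, beside the 16.5% and 19.7% of all genes in wild-type and 15.3% and 18.5% in knockdown. ZBTB16, a zinc finger repressor, rose 1.63 ± 0.23 and 0.78 ± 0.23, and KLF9 0.53 ± 0.06 and 0.40 ± 0.06. TSC22D3, which encodes GILZ, rose in wild-type (0.42 ± 0.08), and in knockdown its difference was 0.18 ± 0.08 (adjusted p = 0.076). Actin-linked LIM proteins, the family of ABLIM1, had 4 higher and 3 lower of 16 in wild-type and 11 higher and 2 lower in knockdown. Beside the same shares of all genes, the wild-type LIM count is near the background. PDLIM4 and FHL3 rose in knockdown (0.76 ± 0.13 and 0.65 ± 0.09), against wild-type differences of 0.21 ± 0.13 (adjusted p = 0.19) and 0.19 ± 0.09 (adjusted p = 0.11).

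Sulfatases and their activators, the relatives of ARSJ, had 6 higher and 1 lower of 15 in wild-type and 5 and 1 in knockdown. For this and the lists that follow, the shares over all genes are 16.5% higher and 19.7% lower in wild-type and 15.3% and 18.5% in knockdown, and counts such as 2 of 12 or 3 of 19 lie near them. SULF1, which trims heparan sulfate, rose 1.14 ± 0.18 in wild-type and 0.65 ± 0.18 in knockdown. Of 10 PDGF and VEGF ligands and PDGF receptors, 3 were higher and 1 lower in wild-type, with PDGFRA at 0.75 ± 0.11, and 4 and 0 in knockdown, with PDGFRB at 0.50 ± 0.07. Of 12 prostaglandin genes 2 were higher and 4 lower in wild-type, and 2 and 2 in knockdown. PTGIS, prostacyclin synthase, rose in both, by 0.84 ± 0.13 and 0.65 ± 0.13. Of 19 selenoproteins other than SEPP1, 3 were higher and 5 lower in wild-type and 6 and 2 in knockdown. DIO2, which activates thyroid hormone, fell by 0.80 in wild-type and rose 0.75 ± 0.16 in knockdown. Of 15 BCL2 family genes 2 were higher and 3 lower in wild-type, and 5 and 1 in knockdown. Of 12 ARID proteins 4 were higher and 1 lower, and 2 and 1. Of 12 genes of dopamine and Gs signalling 2 were higher and 0 lower, and 2 and 1. The 3 other CXC chemokines tested gave no call in either treatment.

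Over the 24 wild-type total RNA libraries each of the 10 genes correlated with the mean of the other 9 at a Pearson r from 0.65 (ARSJ) to 0.97 (CXCL14), which describes genes picked for a like course. The comparison covered 11957 genes, namely the 10 themselves and all others that averaged 1 or more in log2 CPM. Among those others, the 5 closest to the mean of the 10 were LDLRAD4 (r = 0.99), KLHL5 (0.98), PKHD1 (0.97), HAPLN1 (0.97) and HNMT (0.97). All 5 rose in knockdown too, from 0.11 ± 0.04 in KLHL5 to 0.60 ± 0.12 in PKHD1, beside 15.3% of all genes. Over the day LDLRAD4, PKHD1 and HAPLN1 were lower in knockdown (-0.99 ± 0.05, -0.38 ± 0.07 and -1.15 ± 0.05) and KLHL5 and HNMT higher (0.10 ± 0.02 and 0.53 ± 0.03). Over all genes 40.5% were lower and 40.3% higher, so a split of this kind is near the background. The points of these correlations share their libraries and their time order.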

How the data were processed

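Total RNA and ribosome footprints were sequenced in 96 libraries, 48 groups of 2. Per the submitters' processing notes, STAR 2.3.0e, HTSeq 0.5.4p1 and DESeq2 were used with GRCh37. The strand setting is not given in the sources used here, so reads of a gene and an antisense partner cannot be told apart. The deposited signal is gene counts after a scaling of each library by the authors. Read as multiples of the smallest step in a library, 100% of the values were whole within 0.001 read, and these reads were used. Column names give only the time, and treatment, assay and replicate come from the table they sit in.

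The 10 genes, the gene lists and the tests were chosen with earlier results of these data known. Log2(CPM + 0.25) was fitted with limma-trend (limma 3.58.1, R 4.3.3, robust) after TMM scaling within each assay and filterByExpr at a minimum count of 10 (edgeR 4.0.16), with 1 mean per treatment and window of 2 times, 6 windows each. P-values were adjusted by Benjamini-Hochberg over all genes tested, with a threshold of 0.05. The pseudocount shrinks folds of genes at few reads. Late minus early was the mean of CT16 to CT22 minus that of CT00 to CT06, and translational efficiency was the footprint minus the total RNA contrast over all 96 libraries. Because the deposited values were normalised, the edgeR quasi-likelihood test on recovered reads was an alternative. In data simulated for the knockdown rise, 65 of 66 genes changed by a log2 of 2 and 54 of 67 changed by 0.5 were recovered in total RNA. There were 8 false calls over 13834 genes. In footprints 65 of 66 and 48 of 66 were recovered, with 7 false calls over 11819 genes. The simulated libraries were drawn independently around a flat mean of each gene, so libraries of a series that deviate together were not covered. Besides the 10 genes, the text names ARNTL, up to 3 genes of each list with the largest late minus early difference past the threshold, and the 5 genes closest to the mean of the 10. Some items that this rule or the marker lists include are not reported here.

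The labels do not state whether replicates came from separate cultures. P-values therefore measure the spread between these libraries, which may be technical. Each fit used 1 spread for both treatments, so the errors of the knockdown tests also hold wild-type spread. They hold any change between the 2 times of a window as well. For ARSJ footprints, leaving out the wild-type CT18 library of replicate 1 moved the limma adjusted p of the knockdown rise from 0.0497 to 0.0556. A time series contributes 24 libraries per treatment and assay but only 2 series. The main fit treated these libraries as independent, so its p-values for mean levels are not at the level of the series. Same-numbered wild-type total RNA libraries deviated together, with correlations between times from 0.40 to 0.68 (median 0.56), above 0.1 in 66 of 66 pairs. Knockdown ones passed 0.1 in 13 of 66, and knockdown with wild-type total RNA at the same time in 1 of 12. Wild-type footprints did so between times in 58 of 66, knockdown footprints in 4 of 66. Total RNA and footprints of the same time and number deviated together in 12 of 12 wild-type and 7 of 12 knockdown pairs. Not every pair of the libraries compared passed 0.1, so the numbers were not taken as pairing them. Replicates differed by more than counting error (chi-square per degree of freedom 1.41 to 11.7).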

Additional observations from a re-analysis of the deposited data

How the results depend on the processing

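The knockdown differences in mean level kept their direction in all 10 genes and both assays under each alternative run. With the replicate number as a replicate block, 9 of the 10 genes rose late in knockdown total RNA and 8 in footprints. Footprint counts here are over all 10 genes, with the filter limit given above for DRD1, PDGFB and BMF. Without one replicate the counts were 6 to 9 in total RNA and 5 in footprints in both cases. Leaving out each single library was chosen after seeing the data, and over these the footprint count was 4 to 7, with ARSJ lost without 33 of the 48 libraries and SEPP1 and CXCL14 lost without 5 each.

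The number of genes with a called change of efficiency, 0 above, was 2 with the deposited scaling, 3 with a pseudocount of 1 CPM, 1 without the 2 low-depth libraries, and 0 to 1 without a replicate or a library. The turn in knockdown total RNA was called in 0 to 1 genes without a replicate. Reversed signs, none of them called except BMF without replicate 2, were the total RNA rise of BMF (-0.0265 without the low-depth libraries), the total RNA turn of ARID5B (0.0272) and BMF (0.319) without these, of BMF with edgeR (0.275) and of SLCO2A1 with a pseudocount of 1 (-0.0218), and the late minus early efficiency of DRD1 with that pseudocount (-0.112) and of PDGFB without the low-depth libraries (0.0227). Leaving out either replicate gave these ranges. For the total RNA turn they were ABLIM1 -0.222 to 0.00176, BMF -0.889 to 0.805, CXCL14 -0.157 to 0.251, DRD1 -0.780 to 0.193, FOXS1 -0.373 to 0.419, PDGFB -0.0771 to 0.255, SEPP1 -0.311 to 1.01, SLCO2A1 -0.0433 to 0.0881. For the footprint rise they were PDGFB -0.188 to 1.37. For the footprint turn they were ARSJ -0.273 to 0.0315, CXCL14 -0.840 to 1.04, DRD1 -0.380 to 0.557, FOXS1 -0.406 to 0.463, SEPP1 -0.881 to 1.71, SLCO2A1 -0.108 to 0.717. For the knockdown effect on efficiency they were ABLIM1 -0.0631 to 0.142, BMF -0.0810 to 0.722, DRD1 -0.212 to 0.382, FOXS1 -0.283 to 0.0955. For the late minus early efficiency they were ARID5B -0.00987 to 0.145, DRD1 -0.214 to 0.677, FOXS1 -0.662 to 0.362, PDGFB -0.711 to 0.651, SEPP1 -0.342 to 0.00337. The cause of these changes was not tested. Of the 780 values recomputed for single genes, 716 kept direction and side of the threshold. Depth limits PDGFB, DRD1 and BMF most, at under 12 footprint reads in every knockdown library.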
